A study of Mus musculus with 4 samples.

Results

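The genes described here are 8 interferon-inducible GTPases of the mouse, 4 guanylate-binding proteins (GBPs: Gbp2, Gbp3, Gbp5 and Gbp7) and 4 immunity-related GTPases (IRGs: Igtp, Irgm1, Irgm2 and Iigp1). They were chosen by symbol, and all 8 were found among the 14159 genes with expression values. RNA was sequenced from primary squamous cell carcinomas of mice, tumours of squamous epithelium, in 2 libraries with an inducible knockout of Kdm4a and 2 control libraries. Kdm4a encodes a demethylase of histone H3. The labels give the genotypes as KDM4A knockout and control and say that the tumours were not cultured. The same note on inducible knockout stands on all 4 samples, so the labels do not say whether controls received the inducing agent. The sources used here do not give strain, age, inducing agent or the cells in which the gene was removed, nor whether libraries came from separate animals. The spread that the p-values rest on may thus be technical.

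GBPs are large GTPases related to dynamins, and IRGs are smaller GTPases that are numerous in the mouse and largely lost in humans. Both families are made in response to interferons, most strongly to interferon gamma, and they attack the membranes of vacuoles in which bacteria and parasites live. GBPs also coat bacteria in the cytosol and help to set off inflammasomes. Among the IRGs, Igtp, Irgm1 and Irgm2 belong to the regulatory class, which sits on the membranes of the cell itself and holds effector IRGs such as Iigp1 inactive there. Target promoters carry the gamma-activated sequence (GAS) or the interferon-stimulated response element (ISRE), and the factor IRF1 and complexes with IRF9 bind the ISRE.

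All 4 GBPs lie on the plus strand of chromosome 3, with Gbp2b as the neighbour between Gbp3 and Gbp2. In the GENCODE M21 annotation of GRCm38, Gbp5 spans 142493978 to 142522344, Gbp7 142530342 to 142550149, Gbp3 142560026 to 142573209 and Gbp2 142620602 to 142638008. Of the IRGs, Irgm1 is on chromosome 11, minus strand, at 48861968 to 48871683. Igtp (58199556 to 58207591) and Irgm2 (58199618 to 58222782) overlap on the plus strand of the same chromosome. The deposited values were made on build mm9, so these positions describe the genes and not the models that were counted.

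Promoter windows from RefSeq on GRCm38.p6 (250 bases before to 50 after a transcription start) were at hand for 7 of the 8 genes. They are shown because the letters of the ISRE recur before a start of each, close to it in all but Gbp5. The 170 bases before the start follow, 5′ to 3′ on the gene's own strand, with each match to the ISRE core in capitals. For Gbp3 the window of the upstream start is given.
Gbp2, chr3:142620493-142620662, plus strand: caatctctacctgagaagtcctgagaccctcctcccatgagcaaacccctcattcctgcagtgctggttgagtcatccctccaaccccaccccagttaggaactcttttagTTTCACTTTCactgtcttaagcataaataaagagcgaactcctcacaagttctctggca
Gbp3, chr3:142559874-142560043, plus strand: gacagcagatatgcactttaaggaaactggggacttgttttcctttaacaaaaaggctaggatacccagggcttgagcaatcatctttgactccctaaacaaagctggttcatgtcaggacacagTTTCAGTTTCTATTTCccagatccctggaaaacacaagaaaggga
Gbp5, chr3:142496764-142496933, plus strand: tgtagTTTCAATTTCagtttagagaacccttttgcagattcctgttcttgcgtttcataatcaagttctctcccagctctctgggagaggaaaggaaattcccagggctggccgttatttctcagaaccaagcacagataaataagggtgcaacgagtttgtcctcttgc
Gbp7, chr3:142530166-142530335, plus strand: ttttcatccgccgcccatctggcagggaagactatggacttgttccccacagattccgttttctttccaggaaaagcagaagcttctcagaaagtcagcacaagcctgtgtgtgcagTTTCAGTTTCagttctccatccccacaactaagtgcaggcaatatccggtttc
Igtp, chr11:58199386-58199555, plus strand: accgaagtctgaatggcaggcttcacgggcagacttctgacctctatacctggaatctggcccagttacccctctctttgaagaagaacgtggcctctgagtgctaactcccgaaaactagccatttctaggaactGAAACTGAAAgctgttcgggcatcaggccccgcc
Irgm1, chr11:48871421-48871590, minus strand: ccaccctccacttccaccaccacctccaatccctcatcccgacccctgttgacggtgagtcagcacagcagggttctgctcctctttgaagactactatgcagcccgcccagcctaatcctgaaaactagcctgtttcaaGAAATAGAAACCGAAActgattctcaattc
Irgm2, chr11:58214807-58214976, plus strand: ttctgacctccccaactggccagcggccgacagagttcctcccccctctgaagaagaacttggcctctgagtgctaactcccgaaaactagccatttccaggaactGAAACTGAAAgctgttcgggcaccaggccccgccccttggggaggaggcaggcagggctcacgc

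The ISRE core was searched on both strands as a pair of TTTC runs with NN between them, where N is any base. In Igtp, Irgm1 and Irgm2 it reads on the opposite strand, so that the capitals show GAAA runs. All 7 genes had it in a window, against 3.44% of the 32851 promoter windows of the RefSeq table. Its first base lay 24 to 64 bases before the start in 6 genes and 165 bases before it in Gbp5. Gbp3 and Irgm1 each had a pair of overlapping matches, starting 45 and 39 bases before the start in Gbp3 and 30 and 24 bases before it in Irgm1. The second start of Gbp3 had no match in its window. The GAS, searched as TTCNNNGAA, was in the windows of Gbp5, Gbp7, Igtp and Irgm2 and in 8.3% of all windows. In Igtp and Irgm2 the GAS began 11 bases before the ISRE, without overlap between the motifs. A kappa-B motif was found in Gbp2 and Gbp5 (8.46% of all windows) and the E-box CACGTG in none of the 7 (7.15% of all windows). The windows of Igtp and Irgm2 were the most alike, with 72.8% identical columns when aligned over their length, and the next pair, Gbp3 and Gbp7, had 50.6%. Matches describe the letters of these windows and not bound sites.

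**Figure D1:**
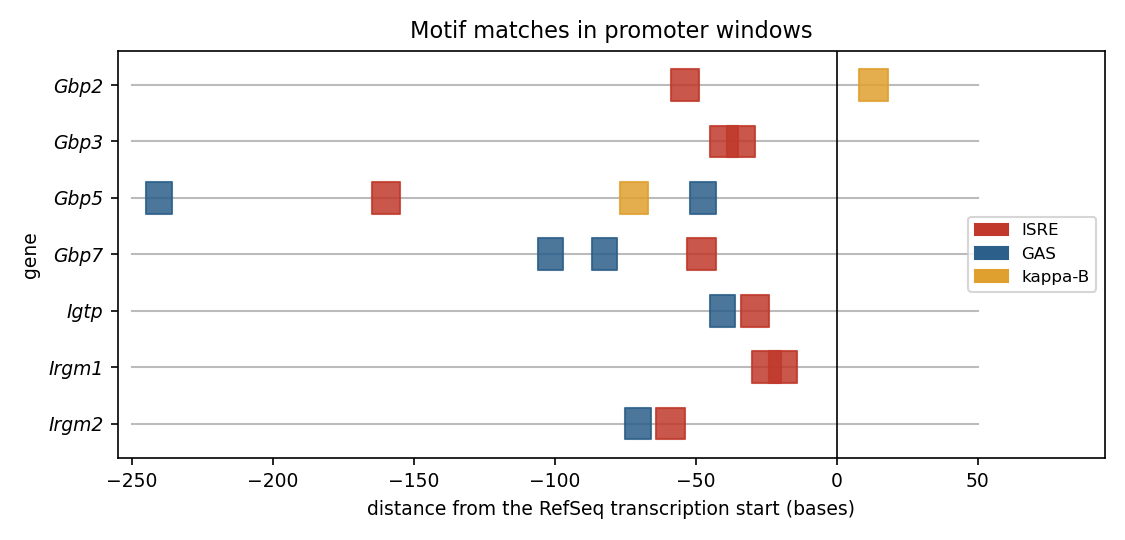
Positions of motif matches in the RefSeq promoter windows of 7 GTPase genes, 1 row per gene, with the distance from the transcription start in bases on the horizontal axis (0 marks the start). Red blocks are ISRE cores, blue blocks GAS and yellow blocks kappa-B motifs; 6 of the 7 genes have an ISRE between 24 and 64 bases before the start.

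Transcript levels are FPKM values from the authors, that is, fragments scaled to transcript length and to the number of fragments mapped. FPKM is a level per length and can be compared between genes. The reads behind each value are unknown. The targeted gene, Kdm4a, stood at 14.9 and 14.7 FPKM in knockout libraries 1 and 2, against 29.6 and 27.7 FPKM in control libraries a and b. It fell by 0.91 on the log2(FPKM + 1) scale (limma adjusted p = 0.00077). The 2 control columns carry the same name, and the letters a and b only tell them apart. Of the markers of the labelled tissue, the basal keratin Krt14 stood at 1570 and 1491 FPKM in knockout and at 2235 and 2259 FPKM in control tumours.

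All 8 GTPase genes were higher in Kdm4a knockout tumours, and the groups overlapped for none of them. Across the 12046 genes tested, 30.1% were called higher and 33.8% lower, and both knockout libraries stood above both controls for 40.4% and below both for 43.5%. A gene was tested with at least 1 FPKM in at least 2 libraries and called at an adjusted p under 0.05. All 8 genes passed that filter. Gbp7 passed it only through the knockout libraries, where it was high, whereas the other 7 also passed it in the control libraries alone. The median log2 fold change of the 8 was 2.05, against -0.03 over all tested genes. Between 0.656% (Gbp5) and 2.25% (Irgm2) of all tested genes had a log2 fold change at least as high as that of a given member.

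**Figure D2:**
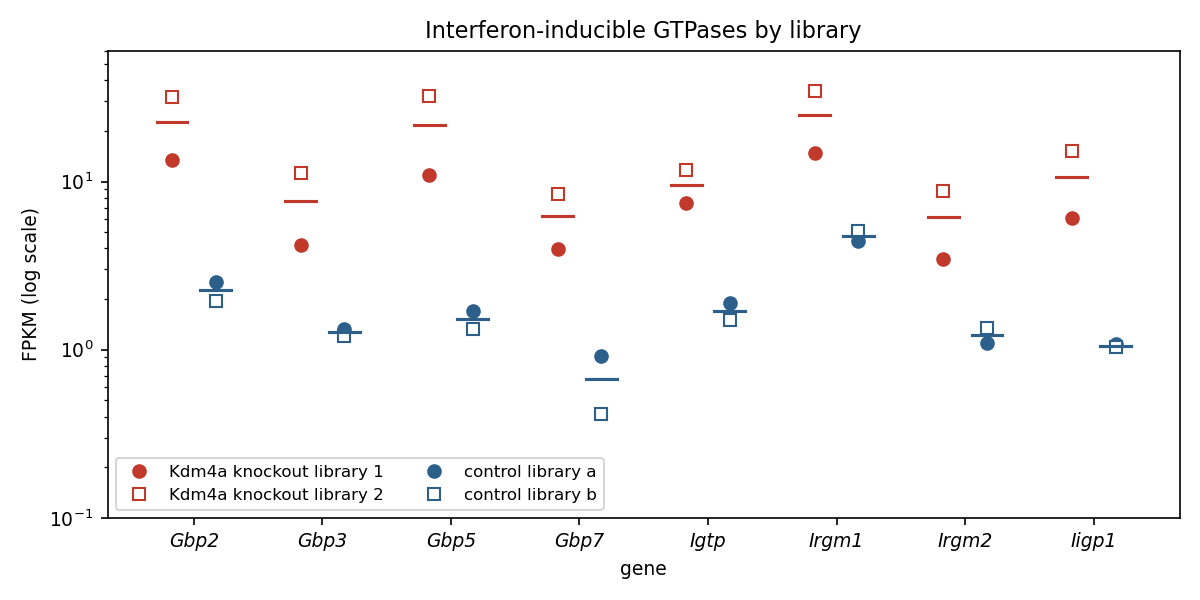
FPKM (log axis) of the 8 GTPase genes in each library, with knockout in red and control in blue; filled circles are knockout library 1 and control library a, open squares knockout library 2 and control library b, and bars the group means. Every knockout value lies above both control values of the same gene, and knockout library 2 is the highest of the 4 libraries for each gene.

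Among the GBPs, Gbp5, which in mice promotes assembly of the NLRP3 inflammasome, had the largest change. It stood at 10.99 and 32.3 FPKM in knockout libraries 1 and 2, against 1.70 and 1.33 FPKM in control libraries a and b. Both knockout libraries were high, and library 2 was 2.94 times library 1. The log2 fold change was 2.99 (SE 0.48, limma adjusted p = 0.00492), and it was 2.26 without knockout library 2 and 3.73 without library 1.

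Gbp2 is a coat protein of vacuoles and of cytosolic bacteria. It had 13.4 and 31.9 FPKM in the knockout libraries and 2.54 and 1.96 FPKM in the control libraries. The lower knockout value was 5.27 times the higher control value. The log2 fold change was 2.75 (SE 0.40, limma adjusted p = 0.00352), with 2.15 without knockout library 2 and 3.35 without library 1.

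Gbp7, which acts against intracellular bacteria in mouse macrophages, was the lowest of the 8 in control tumours. It was measured at 3.98 and 8.44 FPKM in knockout and 0.922 and 0.416 FPKM in control libraries. Neither control library reached 1 FPKM, and the controls differed more between themselves than for any other member, library b being 0.451 times library a. Its log2 fold change was 2.06 (SE 0.34), and 1.60 or 2.52 without knockout library 2 or 1. Gbp7 entered the test only through its knockout values, so its change is given as a description.

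Gbp3, a further GBP of the chromosome 3 cluster, had 4.18 and 11.2 FPKM in knockout libraries and 1.33 and 1.21 FPKM in control libraries. The groups were apart, with the lower knockout value 3.15 times the higher control value. It rose by 1.81 on the log2 scale (SE 0.41, limma adjusted p = 0.014), by 1.19 without knockout library 2 and by 2.43 without library 1.

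The effector IRG Iigp1, a gene of chromosome 18 whose protein loads onto parasite vacuoles, had the largest change of the 4 IRGs. It stood at 6.10 and 15.2 FPKM in the knockout libraries, against 1.08 and 1.03 FPKM in the control libraries. The controls were close, library b being 0.954 times library a. Its log2 fold change was 2.38 (SE 0.39, limma adjusted p = 0.00527), and 1.79 or 2.98 without knockout library 2 or 1.

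Of the regulatory IRGs, Irgm1, which in mice also keeps interferon responses in check, was the most abundant member in both groups by its mean. It had 14.8 and 34.8 FPKM in knockout and 4.43 and 5.08 FPKM in control tumours. The log2 fold change was 2.05 (SE 0.39, limma adjusted p = 0.00831), with 1.46 without knockout library 2 and 2.64 without library 1. In control tumours it was set apart from the next gene, Gbp2, whereas in knockout tumours the ranges of these genes overlapped.

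Igtp, a GTPase of the endoplasmic reticulum also named Irgm3, stood at 7.45 and 11.8 FPKM in knockout and 1.89 and 1.504 FPKM in control libraries. The knockout libraries were closer to each other than for the other 7 genes, library 2 being 1.58 times library 1. Its log2 fold change of 1.95 had the smallest error of the 8 (SE 0.22, limma adjusted p = 0.00177), and was 1.65 or 2.25 without knockout library 2 or 1.

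Irgm2, which restrains noncanonical inflammasome activation in mouse cells, had the smallest change. Its values were 3.47 and 8.81 FPKM in knockout and 1.09 and 1.34 FPKM in control libraries. Here too the groups did not overlap, and the lower knockout value was 2.58 times the higher control value. The log2 fold change was 1.58 (SE 0.38, limma adjusted p = 0.0175), which moved to 1.01 without knockout library 2 and 2.15 without library 1. Differences between members in their fold change were not tested.

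Some of these transcripts are alike, and reads can be shared. In GENCODE M21, 12.3% of the words of 50 bases in the longest Igtp transcript also occurred in Irgm2, and 6.29% of those of Irgm2 in Igtp. For Gbp7, 12.8% of the words occurred in other genes, mostly in Gm43802, which overlaps it on the same strand. The share was 4.79% for Gbp3, 3.19% for Iigp1, 2.45% for Gbp5, 2.07% for Gbp2 and 0% for Irgm1. How the authors' counting divided shared fragments is not given in the sources used here, so single values of Igtp, Irgm2 and Gbp7 are less certain.

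The order of the 8 genes by mean level differed between groups. In knockout tumours it was Irgm1, Gbp2, Gbp5, Iigp1, Igtp, Gbp3, Gbp7 and Irgm2, and each neighbouring pair overlapped in its range over the 2 libraries. In control tumours it was Irgm1, Gbp2, Igtp, Gbp5, Gbp3, Irgm2, Iigp1 and Gbp7, and the pairs Igtp with Gbp5 and Gbp3 with Irgm2 overlapped. Summed over the 8 genes, the level was 64.3 and 154 FPKM in knockout libraries 1 and 2, against 15.0 and 13.9 FPKM in control libraries a and b. GBPs made up 50.6% and 54.3% of that sum in the knockout libraries and 43.3% and 35.4% in the control libraries. Gbp5 supplied 17.1% and 20.9% of the sum in knockout, against 11.3% and 9.61% in control. For Irgm1 the shares were 22.9% and 22.5% in knockout, against 29.6% and 36.6% in control. These shares do not overlap between groups, but an exact permutation test of 2 libraries against 2 cannot give a two-sided p below 0.333.

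**Figure D3:**
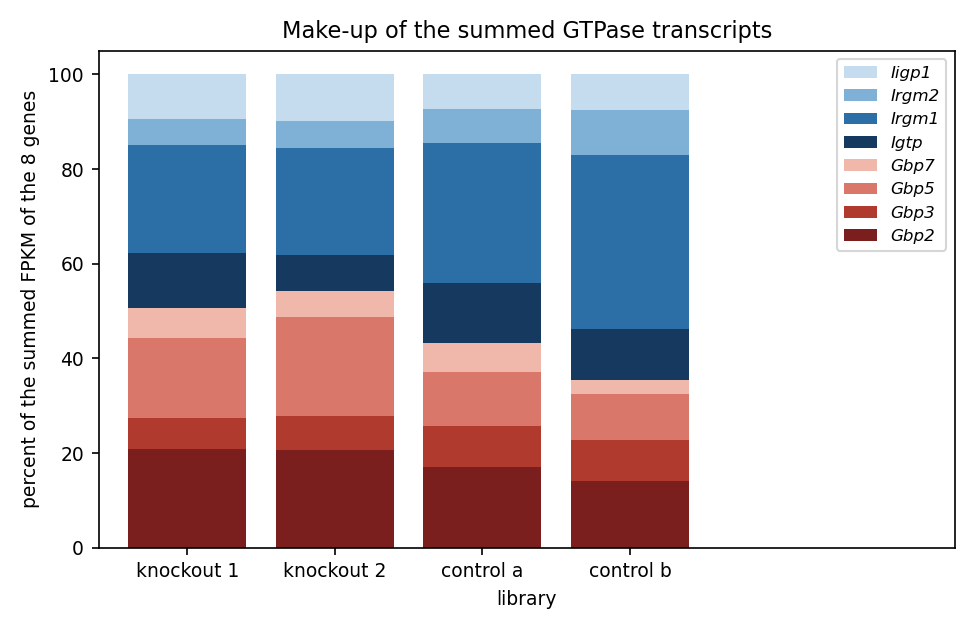
Share of each gene in the summed FPKM of the 8 GTPase genes, in percent, 1 bar per library with the knockout libraries on the left; GBPs are in red tones at the bottom and IRGs in blue tones. GBPs make up 50.6% and 54.3% of the sum in knockout and 43.3% and 35.4% in control.

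Within the knockout group, all 8 genes were higher in library 2 than in library 1. The median difference was 1.19 on the log2(FPKM + 1) scale, against -0.04 over all tested genes, and between the control libraries the members' median difference was -0.14 (b minus a). The difference ran from 0.60 for Igtp to 1.47 for Gbp5, and 0.266% to 2.05% of all tested genes differed at least as much in that direction. Kdm4a itself was alike in both knockout libraries. Over other gene lists, library 2 was above library 1 by a median of 0.88 for type I interferon targets, 0.82 for B and plasma cell markers, 0.61 for interferon gamma targets, 0.26 for macrophage markers and 0.06 for T and NK cell markers. For salivary and secretory markers the median was -1.89. The part of these lists in the difference was not tested.

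Of 17 further GBP, IRG and Mx genes in the table, 10 were tested, and 7 were called higher and 1 lower, with a median log2 fold change of 1.17. These counts are no measure of the families. In 7 of the 10, among them Mx2, Gm12250, Gbp4, Gbp8 and Gbp9, the level was under 1 FPKM in at least 1 control library, and these 5 called genes entered the test only through their knockout values, so their levels are given as a description. The genes at 1 FPKM or more in both control libraries were Mx1, Ifi47 and Irgq. Mx1, an antiviral dynamin-like GTPase, had 16.2 and 33.0 FPKM in knockout and 1.35 and 1.44 FPKM in control libraries, a log2 fold change of 3.33 (limma adjusted p = 0.00118). The IRG Ifi47 rose by 2.12 (adjusted p = 0.00935), with 7.42 and 17.8 FPKM in knockout and 2.49 and 1.39 FPKM in control libraries. Mx2, the relative of Mx1, had 10.03 and 11.2 FPKM in knockout, against 0.654 and 0.263 FPKM in control, with little between the knockout libraries. Gm12250, which encodes an effector IRG, had 3.001 and 6.85 FPKM in knockout and 0.619 and 0.685 FPKM in control.

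The GBPs of the second mouse cluster stood at low levels in both groups, where the pseudocount shrinks a change. Gbp9 had 2.64 and 4.33 FPKM in knockout and 1.06 and 0.748 FPKM in control libraries. Gbp8 had 1.30 and 1.84 FPKM in knockout and 0.405 and 0.240 FPKM in control. Gbp4 stood at 2.80 and 2.85 FPKM in knockout, against 0.811 and 0.702 FPKM in control libraries, with no gap between the knockout libraries. Gbp6 was below the level tested, with 0.780 and 0.769 FPKM in knockout and 0.232 and 0.198 FPKM in control. Gbp2b, the neighbour of Gbp3 and Gbp2, was also below the level tested. It had 0.399 and 0.240 FPKM in knockout and 0.640 and 0.236 FPKM in control libraries, and the groups overlapped.

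Irgq, a distant IRG relative, was the gene that fell. It stood at 1.27 and 1.44 FPKM in knockout, against 7.02 and 6.93 FPKM in control libraries (log2 fold change -1.76, SE 0.10, limma adjusted p = 0.000445). The IRG-like genes 9930111J21Rik1 and F830016B08Rik had log2 fold changes of 0.63 (adjusted p = 0.0559; under 0.05 with robust eBayes, with the length trend removed and without knockout library 1) and -0.03 (adjusted p = 0.859). Among the untested IRG-like genes, Tgtp1, Tgtp2, Gm4951, Gm5431 and Gm12185 had knockout means 2.73 to 9.17 times the control means, all with control means under 1 FPKM. The atlastins, which shape the endoplasmic reticulum and are related to GBPs but not made in response to interferon, did not pass. Atl3 stood at 53.7 and 45.6 FPKM in knockout and 41.4 and 42.2 FPKM in control (log2 fold change 0.24, adjusted p = 0.079). It passed with median-ratio scaling (0.28, adjusted p = 0.041), without knockout library 2 (0.35, adjusted p = 0.00842) and with the trend with transcript length removed (0.65, adjusted p = 0.00369). Atl2 differed by -0.01, a sign that turned under 5 of 13 alternatives, among them quantile normalization and median-ratio scaling. Atl1 was below the level tested.

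**Figure D4:**
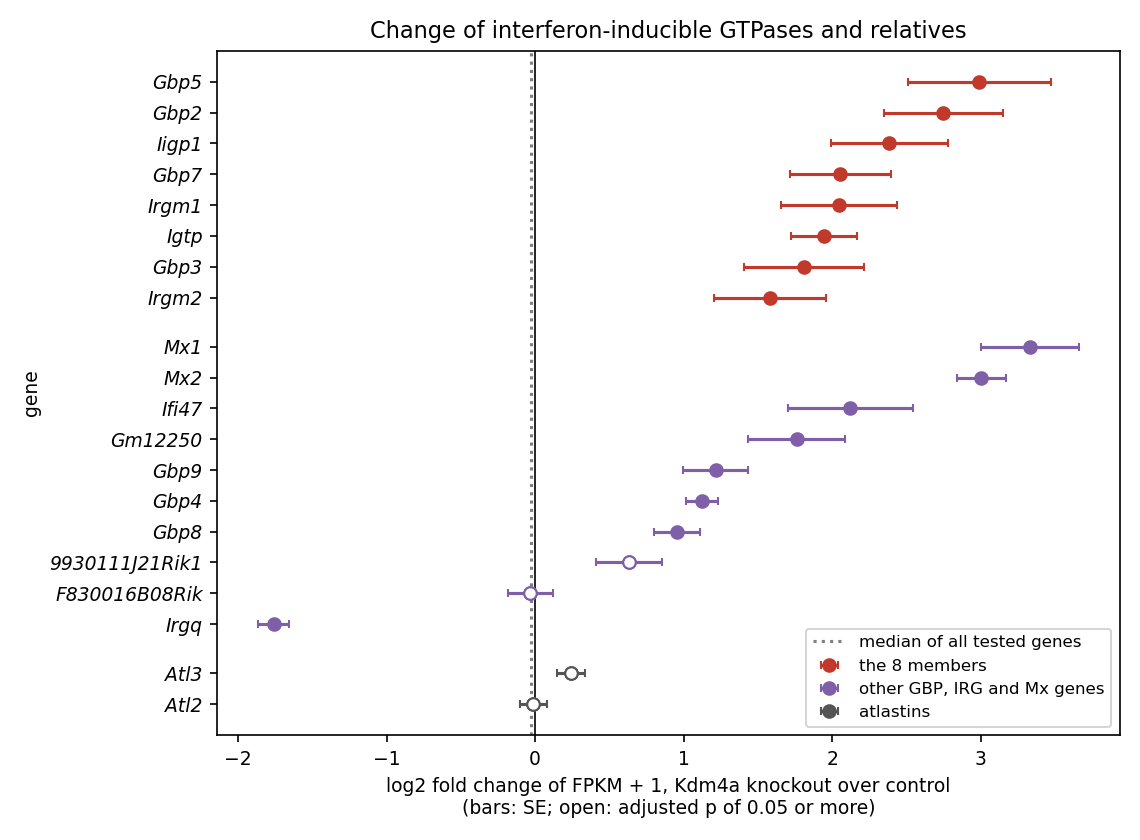
Log2 fold change of FPKM + 1, Kdm4a knockout over control, for the 8 members (red), the tested further GBP, IRG and Mx genes (purple) and the atlastins (grey), with moderated standard errors; open circles did not pass. The members lie between 1.58 and 2.99, and Irgq is the gene below 0 that passed.

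The genes whose profile over the 4 libraries was closest to the members' mean profile were Parp14, Cd274, Ifi203, Oasl2 and Ifi47. Likeness was the Euclidean distance between log2(FPKM + 1) profiles centred on their means, and 4 libraries set few limits on it. It was taken over 8369 genes averaging 5 FPKM or more, without provisional symbols. All 5 named genes were under 5 FPKM in both control libraries, so they reached that average only through their knockout values. The distances were 0.186 to 0.316, and the members' own distances to that mean were 0.204 to 0.838. Parp14, an ADP-ribosyltransferase, had 7.62 and 19.2 FPKM in knockout and 2.09 and 1.45 FPKM in control libraries. Cd274 encodes PD-L1 and had 10.5 and 20.2 FPKM in knockout and 2.59 and 2.06 FPKM in control. Ifi203 belongs to the HIN-200 family, and Oasl2 is an oligoadenylate synthetase-like gene.

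In the pathway that drives GTPase genes, 9 of 22 tested genes rose and 3 fell, that is 40.9% and 13.6%, against 30.1% and 33.8% of all tested genes. The median log2 fold change was 0.19. With control library a or b left out, 1 gene fell, and with knockout library 2 left out, 5 fell. At the level of the ligand, Ifnb1 stood at 58.9 and 72.9 FPKM in knockout, against 3.24 and 2.19 FPKM in control libraries. It was the gene of this list with the largest change, 4.18 on the log2 scale (limma adjusted p = 0.000297). Ifng, which encodes interferon gamma, was on this list but had no expression values, so its level could not be described. The lack of values does not show whether it was expressed.

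The subunits of the interferon gamma receptor did not pass. Ifngr1 stood at 11.5 and 13.1 FPKM in knockout and 15.2 and 14.0 FPKM in control (log2 fold change -0.23, adjusted p = 0.101; it passed without knockout library 2 and with the length trend removed). Ifngr2 had 10.5 and 11.2 FPKM in knockout and 11.06 and 11.03 FPKM in control, and its fold change of -0.02 turned its sign with quantile normalization, with median-ratio scaling and with the length trend removed. Of the receptor kinases, Jak1 rose by 0.48 and Jak2 fell by 0.71 (adjusted p = 0.00255 and 0.0139). Jak2 no longer passed when control library a (adjusted p = 0.0529) or b (adjusted p = 0.0511) was left out.

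Of the transcription factors that bind the promoter elements, Stat2, Irf1 and Irf9 rose. Irf1 had 34.6 and 55.2 FPKM in knockout, against 12.4 and 10.9 FPKM in control (log2 fold change 1.83, limma adjusted p = 0.00222), and was thus higher in library 2, as the GTPases were. Stat2 rose by 0.77 and Irf9 by 0.47 (adjusted p = 0.00733 and 0.0294). Irf9 did not pass with control library a left out (0.33, adjusted p = 0.207), nor with knockout library 1 or 2 left out (adjusted p = 0.0514 and 0.0933). Irf8 stood at 12.7 and 23.1 FPKM in knockout and 24.4 and 23.4 FPKM in control. Its change of -0.45 did not pass (adjusted p = 0.197), but did without knockout library 2 (-0.86, adjusted p = 0.00267). The repressor Irf2 differed by -0.14 (adjusted p = 0.21). Socs1, the feedback inhibitor of the receptor kinases, rose by 1.58 (adjusted p = 0.00611).

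Some genes of the lists that follow were under 1 FPKM in a control library and were tested through their knockout values. Their number among the called is given beside each count. Over all tested genes, 30.1% were called higher and 33.8% lower, and each count that follows stands beside these shares. Targets of interferon gamma other than the GTPases rose in 18 of 25 tested genes, 4 of them tested in that way, and fell in 2, with a median of 0.94. The genes with the smallest p there were those that fell, Upp1, a uridine phosphorylase (-1.59), and Wars, a tRNA synthetase (-0.75). Type I interferon targets rose in 22 of 25, of which 4 were so tested, with a median of 1.67 and none that fell. The ubiquitin-like Isg15 rose by 2.80. The lists hold genes that respond to either interferon.

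Genes whose products work with GBPs and IRGs were mixed, as were all tested genes, of which 30.1% were called higher and 33.8% lower. Of the conjugation machinery that loads the GTPases onto vacuoles, 9 of 17 rose and 4 fell (median 0.21; 5 rose without control library b). Gabarapl2, a ubiquitin-like protein needed for loading in mouse cells, rose by 0.68, and Atg7, its activating enzyme, fell by 0.80. Of 8 enzymes that make or process prenyl groups, the lipid anchors of Gbp2 and Gbp5, 2 rose and 1 fell (4 fell without knockout library 1, and 3 with the length trend removed). The other 5 were not called. The farnesyltransferase subunit Fntb fell by 1.62, with 4.31 and 4.27 FPKM in knockout and 14.5 and 16.1 FPKM in control. The protease Zmpste24 rose by 1.33. Which of the 8 enzymes act on Gbp2 and Gbp5 was not examined. Inflammasome genes rose in 4 of 8, of which 3 were tested through the knockout values, Casp4 and Nlrp3 included, and fell in 1 (none fell without control library a or without b, nor with quantile normalization). Casp4, the sensor of bacterial lipopolysaccharide that GBPs assist, stood at 2.13 and 4.17 FPKM in knockout and 0.741 and 0.831 FPKM in control, and Nlrp3 at 1.82 and 2.74 FPKM in knockout and 0.942 and 0.844 FPKM in control. Ubiquitin genes and ligases at vacuoles rose in 6 of 9, of which 1 was so tested, and fell in 2, and the polyubiquitin gene Ubb rose by 1.34.

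Protein-coding genes within 200 kb of a member that belong to no GTPase list, a set chosen after the data were seen, went both ways. Of 16 tested, 6 rose and 5 fell (37.5% and 31.2%, against 30.1% and 33.8% of all tested genes), with a median of 0.04. The genes named were picked with their values known. Beside the GBP cluster, the general transcription factor gene Gtf2b rose by 0.92 and the kinase gene Pkn2 fell by 0.43. Next to Igtp and Irgm2, Mrpl22 rose by 1.09 and Cnot8 by 1.13, whereas Larp1 fell by 1.46. Cnot8 stood at 47.6 and 49.0 FPKM in knockout libraries 1 and 2, against 21.3 and 21.7 FPKM in control. A cause shared by the members and their neighbours was not tested.

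In whole tumours, more cells of a type and more RNA per cell cannot be told apart. Many immune cell markers were higher in knockout than in control, where 30.1% of all tested genes were called higher and 33.8% lower. Between the knockout libraries the GTPases differed by a median of 1.19 (library 2 over 1). For B and plasma cell, macrophage and T and NK cell markers that median was 0.82, 0.26 and 0.06. T and NK cell markers rose in 12 of 12 tested genes, of which 2 were tested through the knockout values. Fewer of them passed when control library b or either knockout library was left out. Their summed level was 53.3 and 55.4 FPKM in knockout and 23.9 and 19.0 FPKM in control libraries. The T cell genes Lat and Cd2 each rose by 1.30. B and plasma cell markers rose in 8 of 11, of which 3 were so tested, Cr2 included, and fell in 1 (none fell without control library b), with sums of 72.7 and 129 FPKM in knockout and 53.7 and 63.5 FPKM in control. Cd79b rose by 1.39, and Cr2 had a log2 fold change of 1.06. Macrophage markers rose in 8 of 13, with sums of 751 and 880 FPKM in knockout and 604 and 563 FPKM in control, but in 3 without control library a, 1 without control library b and 5 without knockout library 2. Cd68 rose by 0.78 and Ms4a7 by 0.53, and Ms4a7 did not pass when control library a or b was left out (adjusted p = 0.0537 and 0.058). No gene with expression values averaged under 0.25 FPKM, so none could be at 0 in all 4 libraries. Some listed markers had no values and could not be described. Of 19 listed T and NK cell markers, 13 had values. The part of these cells in the rise of the GTPases was not tested.

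Other cell types gave smaller counts. Of 6 endothelial and 6 dendritic markers with values, 2 of each were tested, the others being below the level tested. Neutrophil markers rose in 4 of 6, of which 1 was tested through the knockout values, and fell in 1 (2 rose without control library a and without knockout library 2, and 1 with the length trend removed), with S100a8 at 0.61 and Cxcr2 at -0.99. Dendritic markers rose in 1 of 2, Flt3 (0.52; tested through the knockout values; not called when control library a, control library b or knockout library 2 was left out), while Ccr7 had 0.59 (adjusted p = 0.0846; it passed without control library a). Endothelial markers rose in 2 of 2, Egfl7 (0.70) and Pecam1 (0.52; not called when control library b or a knockout library was left out, nor with no filter on low values). Fibroblast markers rose in 1 of 8, Thy1 (1.04), with Col1a2 at 0.22, and in 3 with the length trend removed. Squamous epithelial markers fell in 7 of 14, and none rose (1 rose without knockout library 1). Their summed level was 5931 and 5813 FPKM in knockout and 9462 and 9691 FPKM in control libraries, and Krt17 and Dsc3 fell by 1.01 and 0.78. Salivary and secretory markers rose in 6 of 7, of which 4 were tested through the knockout values, Pip included, and fell in 1 (3 rose with robust eBayes, and none fell without control library a or without b), with sums of 5070 and 1315 FPKM in knockout and 289 and 315 FPKM in control. Most of the control sums came from the keratin gene Krt18, the gene of this list that fell. It stood at 217 and 236 FPKM in knockout and 282 and 278 FPKM in control libraries. Of the other genes of the list, Amy1 rose by 5.01, and Pip had a log2 fold change of 5.99. The summed level of the salivary and secretory markers was highest in knockout library 1, and all 8 GTPases were highest in knockout library 2. The part of salivary tissue in the GTPase values was not tested.

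**Figure D5:**
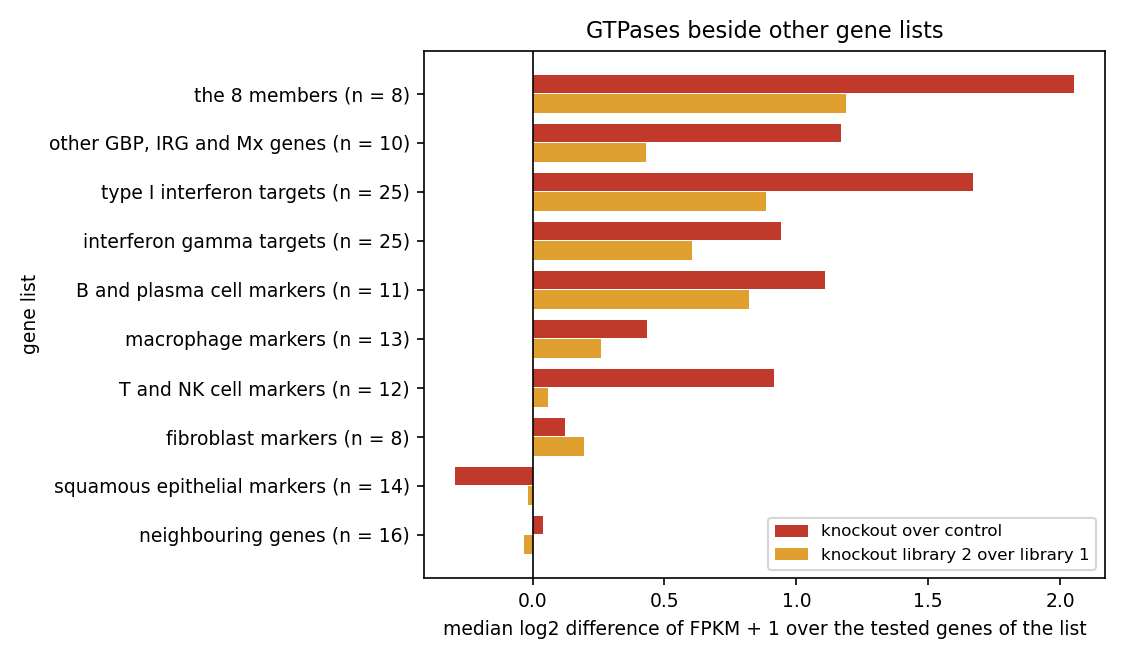
Median log2 difference of FPKM + 1 over the tested genes of each list, for Kdm4a knockout over control (red) and for knockout library 2 over library 1 (yellow); n is the number of tested genes. The 8 GTPases have medians of 2.05 and 1.19, and neighbouring genes of 0.04 and -0.03.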

How the data were processed

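FPKM values of 14159 genes in 4 polyadenylated RNA libraries were used as deposited; per the submitters' processing notes the authors used TopHat and Cufflinks with build mm9, without versions. The sheet is named for counts per 1e6, but columns sum to 592281 to 626719 and values do not rise with transcript length (rank correlation from -0.085 to 0.013 over 14031 genes), so they were read as FPKM. Depth is unknown, which leaves counting precision unknown. RNA libraries were stranded, per the labels' protocols; the sources used here do not give the strand setting of counting.

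Values were fitted as log2(FPKM + 1) with limma 3.58.1 in R 4.3.3 (eBayes with a trend, 2 residual degrees of freedom), knockout against control, with Benjamini-Hochberg adjustment over 12046 genes. The test was two-sided and had no covariate. A fold change on this scale understates that of low genes. A list is described by its counts and median and was not tested.

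The 8 genes and 18 lists were chosen with earlier results of these data known. Named genes are the members, all further GTPase genes and atlastins, a set of signalling genes, 2 genes of smallest p per other list, Kdm4a and 5 nearest profiles. Neighbours, Krt14, Krt18 and word sharing were added after the data were seen. Promoters and positions came from RefSeq and GENCODE M21 tables. Protein sequences were not used here, and 2 of the named genes are not reported here.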

Additional observations from a re-analysis of the deposited data

How the results depend on the processing

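All 8 GTPases were higher with an adjusted p under 0.05 in each of the 13 alternatives in which they were tested, 101 values in all: pseudocounts of 0.1 and 5, 2 other filters, quantile and median-ratio scaling, eBayes run robustly or with no trend, the trend with transcript length removed, and each library left out. Gbp7 was tested only through its knockout values, except with no filter on low values. With a filter of at least 5 FPKM in 2 libraries, 5 of the 8 were tested, and the count of members higher was 5, since fewer genes were tested. None of these 5 reached 5 FPKM in both control libraries. Under that filter they too were tested only through their knockout values, so their calls there are a description. The count stayed at 8 with each library left out, where the lone library of a group is assumed to vary like the other group. Over all genes, 2437 to 3691 were called higher and 2808 to 4455 lower with each library left out.

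Values close to 0 changed sign, and in none of these cases was the gene called. Atl2 was 0.0193 with quantile normalization, 0.0236 with median-ratio scaling and 0.0894 with the length trend removed, and between -0.0977 and 0.0734 with a library left out. Ifngr2 was 0.107, 0.0141 and 0.051 under the same settings and between -0.0611 and 0.0214 with a library left out. F830016B08Rik lay between -0.194 and 0.126 with a library left out. The cause was not tested.

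No paired analysis was possible because the control columns have 1 name between them, so the replicate block was not run. Control means of the 8 genes of 0.669 to 4.76 FPKM and the unknown depth limit how well each fold change is known.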
